A study of Mus musculus with 6 samples.

Results

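The genes described here encode the machinery that copies DNA in S phase: 47 mouse genes, taken by name, whose products recognise and license origins, unwind DNA, synthesise the new strands, repackage them and supply the nucleotides. Of the 47, 45 had at least 1 probe under that symbol in the platform annotation, over 52 of the 16281 probes on the array; Cdt1 and Rfc2 had none. A gene was tested where it had a probe with a ratio on all 6 arrays, which held for 42 of the 45, as it did for 9160 of the 10698 genes that a single-symbol probe named. They were placed in 3 groups: helicase and origin (21 genes), polymerase and clamp (21 genes, with the chromatin assembly factor counted here) and nucleotide supply (5 genes).

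The cells were RAW 264.7, a mouse macrophage line that keeps dividing in culture. Cells treated with lipopolysaccharide (LPS, the endotoxin of Gram-negative bacteria, 100 ng/ml) together with LPS-binding protein (LBP, the serum protein that carries LPS to its receptors, 100 pM) were set against untreated cells, both cultured for 48 h. RNA of both was hybridised together on each of 6 two-colour arrays, 3 with the treated RNA in the red dye Cy5 and 3 with it in the green dye Cy3, each in sets 1, 2 and 3. A single cell line is a limit of the model, and because only ratios were available, its identity could not be checked against macrophage markers.

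In a dividing cell the origin recognition complex (ORC) marks origins in G1, where Cdc6 and Cdt1 load the ring-shaped MCM2-7 helicase on to DNA, and geminin (Gmnn) holds Cdt1 back once S phase has begun. Kinases, Cdc45 and the GINS complex then activate the helicase, polymerase alpha with primase lays down primers, and polymerases epsilon and delta extend them, tethered by the sliding clamp PCNA. Many of these genes are textbook targets of E2F transcription factors and are transcribed most in cells that enter S phase, so their RNA is often read as a sign of proliferation.

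Each value is a log2 ratio, treated RNA over untreated, so that -1 would stand for a halved level. The base of the logarithm is not stated and was taken as 2; a natural logarithm would make every change larger than given here as a percentage or fold. Each mean is that of 3 set means, each averaging both dye orientations of 1 set, and is given ± SD (n = 3); adjusted p-values are from limma with Benjamini-Hochberg adjustment over all 9160 genes, and "fell" and "rose" are used for an adjusted p under 0.05. The direction rests on Cy5 being the numerator, and under that reading 4 textbook LPS-induced genes were above 0 on each of the 6 arrays: Il1b (3.53 ± 0.30), Il6 (3.81 ± 0.62), Tnf (0.96 ± 0.18) and Nos2 (1.11 ± 0.18). The labels do not state whether each set was a culture of its own, and the p-values therefore cover only the spread among set means, which may be technical.

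Most of the replication machinery was lower after LPS and LBP, by moderate amounts. Of the 42 genes tested, 29 fell (69.0%, against 12.8% of all genes tested), 1 rose (2.38%, against 15.0% of all genes) and 12 did not pass. The median log2 ratio was -0.43, a level of 74.5% of that in untreated cells, beside a median of -0.01 over all genes. No member reached a halved level: the lowest, the thymidine kinase Tk1, stood at -0.82 ± 0.19. The members were below 0 on all 6 arrays in 29 of 42 cases, against 14.5% of all genes. A ratio of bulk RNA cannot tell fewer cells that carry a transcript from less of it per cell.

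The decrease was seen on every array. The median over the 42 members was -0.46, -0.48 and -0.32 with the treated RNA in Cy5 (sets 1 to 3) and -0.51, -0.52 and -0.36 with it in Cy3, and between 35 and 39 members were below 0 on each array, whereas the medians over all genes lay between -0.02 and 0.01. Set 3 gave the smallest decrease. Of the 29 members that fell, 26 had their smallest decrease in set 3. Over all genes, the median absolute deviation of the set means was 0.268, 0.306 and 0.284 in sets 1, 2 and 3. The set 3 array with treated RNA in Cy5 had the most values listed at exactly 0, 17.8% of its probes. The other 5 arrays had 7.97% to 12.8%. The part of the spread or of the zeros in the smaller decrease was not tested.

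**Figure D1:**
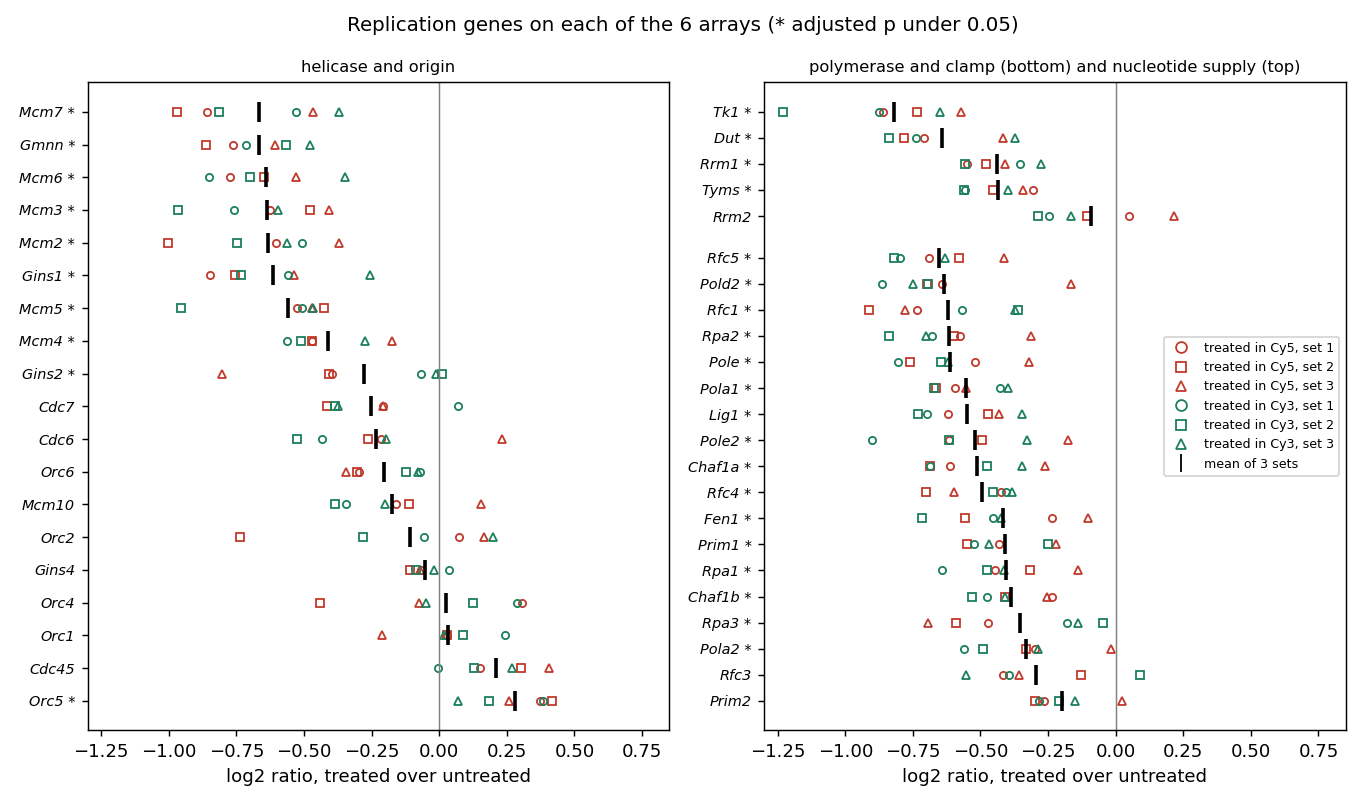
Log2 ratio of treated over untreated cells (x axis) for each of the 42 replication genes tested (y axis), with 1 point per array (red, treated RNA in Cy5; green, treated RNA in Cy3; circle, square and triangle, sets 1, 2 and 3) and a bar at the mean of the 3 sets; an asterisk marks an adjusted p under 0.05 (limma). All 6 points of Mcm2 to Mcm7 lie below 0, whereas those of Orc1, Orc2 and Orc4 lie on both sides of it. The points of Mcm3 are those of probe 5976 alone, without probe 7959, and those of Orc4 average 2 probes of opposite sign.

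The 6 subunits of the MCM2-7 helicase, which unwinds DNA ahead of the polymerases, all fell, with a median of -0.64 (64.4% of the untreated level). Mcm7 read -0.86, -0.97 and -0.47 with treated RNA in Cy5 (sets 1 to 3, as in every such list below) and -0.53, -0.81 and -0.37 in Cy3, a mean of -0.67 ± 0.24 (adjusted p = 0.00264). The corresponding values of Mcm6 were -0.77, -0.65 and -0.53, then -0.85, -0.70 and -0.35, a mean of -0.64 ± 0.19 (adjusted p = 0.00209). For both genes set 3 was nearest to 0, and no array reached it. Mcm2 gave -0.60, -1.003 and -0.37 in Cy5 and -0.51, -0.75 and -0.56 in Cy3 (mean -0.63 ± 0.22, adjusted p = 0.00284), with its 2 lowest readings in set 2. Mcm5 gave -0.53, -0.43 and -0.47 in Cy5 and -0.51, -0.95 and -0.47 in Cy3 (mean -0.56 ± 0.12, adjusted p = 0.00236), with 5 arrays close together and the set 2 array in Cy3 apart. Mcm4 had the smallest mean decrease of the 6, except with zeros kept, where that of Mcm3 was smaller. It read -0.47, -0.47 and -0.17 in Cy5 and -0.56, -0.51 and -0.28 in Cy3 (mean -0.41 ± 0.16, adjusted p = 0.0129). Its call was lost without set 2 (adjusted p = 0.0591) and with exact zeros kept as values (adjusted p = 0.0601). Mcm4 had no zero on any array, and its mean was the same in the fit with zeros kept, which covered 10698 genes. The same held for Orc5, Gins2, Pola2, Pole2 and Fen1 below.

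Mcm3 had 2 probes, annotated to the same transcript, which did not read alike. Probe 5976 read -0.63, -0.48 and -0.41 in Cy5 and -0.76, -0.97 and -0.60 in Cy3, a mean of -0.64 ± 0.12 (adjusted p = 0.00124 in the fit over genes). Probe 7959 read 0.12, -0.09 and 0.07 in Cy5 and 0.08 and 0.12 in sets 2 and 3 in Cy3, and was listed at 0 on the other array. On the 5 arrays that both measured, the former minus the latter was between -1.05 and -0.38. The value of Mcm3 in the fit is that of probe 5976 alone, since the other lacked a ratio on 1 array. Using each probe in the sets where it had both orientations gave -0.42 (adjusted p = 0.0199). That value averages both probes in sets 2 and 3 and rests on probe 5976 alone in set 1. Keeping zeros as values gave -0.29 (adjusted p = 0.0497).

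Stretches near the start sites of 4 of the 6 helicase genes, and of Cdc6 and Orc1 for contrast, are shown here because these genes carry an E2F word yet differ in ratio. Mcm2, which also fell, held none of the words searched, and Mcm4 had no start site in the table used. The words searched were TTTGGCGC, TTTCCCGC, TTTGCCGC and TTTCGCGC, on both strands, from 250 bases before to 50 after each RefSeq start (GRCm38.p6); words on opposite strands can overlap, as 2 pairs do below. Capitals mark the words as they read on the gene's own strand, 5′ to 3′. Mcm7 held a further word, 17 bases after its start, that is not shown.
Mcm7: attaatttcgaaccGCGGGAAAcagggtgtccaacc
Mcm6: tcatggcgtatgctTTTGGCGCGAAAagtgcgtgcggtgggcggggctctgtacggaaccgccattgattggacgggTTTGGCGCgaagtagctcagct
Mcm3: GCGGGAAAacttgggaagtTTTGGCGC
Mcm5: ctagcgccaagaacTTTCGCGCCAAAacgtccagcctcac
Cdc6: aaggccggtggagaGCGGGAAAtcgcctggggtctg
Orc1: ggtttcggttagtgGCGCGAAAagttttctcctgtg

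The Mcm7 stretch lies at chr5:138172027-138172062 (minus strand, 179 to 144 bases before the start), that of Mcm6 at chr1:128359731-128359829 (minus strand, 124 to 26 bases before) and that of Mcm5 at chr8:75109342-75109381 (plus strand, 167 to 128 bases before). That of Mcm3 lies at chr1:20820267-20820293 on the minus strand, from 20 to 46 bases after the start, within the transcript. For Cdc6 it is chr11:98907999-98908034 (plus strand, 152 to 117 bases before) and for Orc1 chr4:108579413-108579448 (plus strand, 41 to 6 bases before). In all, 39 of the 47 genes had a start site in the RefSeq table (Gmnn, Mcm4, Gins1, Gins2, Gins4, Rfc2, Prim2 and Pole had none), and 13 of the 39 held an E2F word in at least 1 window, against 2.61% of 27025 genes. A CCAAT word, searched in the same windows and on both strands, was held by 23 of the 39, against 41.1% of genes. By call, an E2F word was held by 7 of 24 members that fell, 3 of 10 that did not pass (Orc1, Cdc6 and Rfc3), 0 of 1 that rose and 3 of 4 that were not tested. These matches are descriptions of letters and not of binding.

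Upstream of the helicase the picture was mixed. Of the 5 ORC genes tested, which mark origins, 0 fell (12.8% of all genes did) and 1 rose (15.0% of all genes did) by limma. With so few genes, these counts are near the shares over all genes. The median was 0.03. At an unadjusted p under 0.05, Orc6 was lower and Orc5 higher among the 5, while 3587 of all 9160 genes passed that level in either direction. Orc1, the largest subunit, read 0.03, 0.03 and -0.21 in Cy5 and 0.24, 0.09 and 0.02 in Cy3 (mean 0.03 ± 0.12, adjusted p = 0.821), with readings on both sides of 0. Orc5 read 0.37, 0.42 and 0.26 in Cy5 and 0.39, 0.18 and 0.07 in Cy3, above 0 on all 6 arrays, a mean of 0.28 ± 0.11 (adjusted p = 0.0416). That call was lost without set 1, 2 or 3 (adjusted p = 0.183, 0.125 and 0.057), with zeros kept (adjusted p = 0.0694) and with arrays scaled to a common spread (adjusted p = 0.0521). Orc6 was below 0 on all 6 arrays and did not pass (-0.20 ± 0.02, adjusted p = 0.0937). It read -0.30, -0.31 and -0.34 in Cy5 and -0.07, -0.12 and -0.08 in Cy3, so that this SD leaves out a spread between orientations. Orc2 stood at -0.11 ± 0.36 (adjusted p = 0.601) and ranged from -0.74 to 0.20 between arrays. Orc3 was listed at 0 on 1 array, read between -0.55 and 0.21 on the others, and was not tested. Whether the ORC genes differ from the helicase genes was not tested.

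Orc4 was measured by 2 probes of opposite sign. Probe 14449 read 0.86, -0.01 and 0.08 in Cy5 and 0.92, 0.42 and 0.41 in Cy3 (mean 0.44 ± 0.39, adjusted p = 0.0444 in the fit over probes). Probe 18090 read -0.24, -0.87 and -0.23 in Cy5 and -0.34, -0.17 and -0.50 in Cy3 (mean -0.39 ± 0.12, adjusted p = 0.013). The first exceeded the other on all 6 arrays, by 0.30 to 1.27, and both passed in opposite directions. Their average, 0.03 ± 0.24 (adjusted p = 0.888), therefore describes neither probe.

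Of the licensing factors, geminin fell and Cdc6 did not pass. Both Gmnn probes fell: probe 12784 read -0.79, -1.12 and -0.82 in Cy5 and -0.70, -0.41 and -0.53 in Cy3, and probe 16780 read -0.74, -0.61 and -0.39 in Cy5 and -0.73, -0.72 and -0.42 in Cy3. Their mean was -0.67 ± 0.11 (63.0% of the untreated level, adjusted p = 9.27e-04), and all 12 readings were below 0. Cdc6, averaged over 2 probes, read -0.21, -0.26 and 0.23 in Cy5 and -0.43, -0.53 and -0.20 in Cy3, below 0 except in set 3 with treated RNA in Cy5 (mean -0.23 ± 0.22, adjusted p = 0.128). Its probes agreed to within 0.26 on every array, and without set 3 it passed (-0.36, adjusted p = 0.0451).

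Among the factors that switch the loaded helicase on, 2 of 6 fell. Gins1, a GINS subunit, read -0.85, -0.76 and -0.54 in Cy5 and -0.56, -0.73 and -0.26 in Cy3 (mean -0.62 ± 0.19, adjusted p = 0.00259). Gins2, another subunit of the same complex, averaged -0.28 ± 0.11 (adjusted p = 0.0436), with a gap between orientations: it read -0.39, -0.41 and -0.80 in Cy5 but -0.07, 0.01 and -0.01 in Cy3. The call was lost without set 1, 2 or 3 (adjusted p = 0.0858, 0.0757 and 0.206) and with zeros kept (adjusted p = 0.0735). Gins4 read between -0.11 and 0.03 over the arrays (-0.05 ± 0.04, adjusted p = 0.673). The 3 measured GINS members thus spanned -0.62 to -0.05. The kinase Cdc7, which phosphorylates the helicase, stood at -0.25 ± 0.17 (adjusted p = 0.0796, and 0.046 without set 1) and Mcm10, an activation factor, at -0.17 ± 0.13 (adjusted p = 0.18); neither passed.

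Cdc45, the helicase cofactor, again had 2 probes annotated to 1 transcript with opposite readings. Probe 3258 read -0.11, -0.09 and 0.17 in Cy5 and -0.50, -0.48 and -0.35 in Cy3 (mean -0.23 ± 0.12, adjusted p = 0.1). Probe 7564 read 0.41, 0.69 and 0.65 in Cy5 and 0.49, 0.74 and 0.89 in Cy3 (mean 0.64 ± 0.17, adjusted p = 0.0017 in the fit over probes), above the other on all 6 arrays; the former minus the latter ran from -1.24 to -0.48. The gene's average of 0.21 ± 0.13 (adjusted p = 0.116) lies between them. In the fit over probes, 31 of 48 member probes fell (12.2% of all 12724 probes did) and 3 rose (14.8% of all probes); the 3 were this one, Orc4 probe 14449 and the Orc5 probe.

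**Figure D2:**
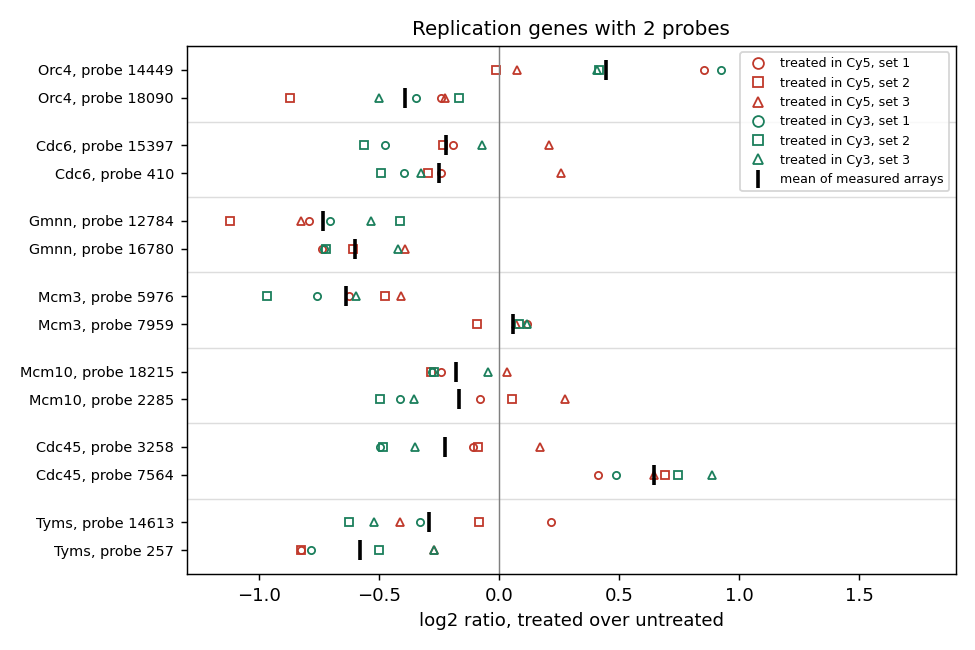
Log2 ratio of treated over untreated cells (x axis) on each array for both probes of the 7 replication genes that had 2 (y axis), with colours and shapes for dye orientation and set and a bar at the mean of the arrays that measured the probe. The probes of Orc4, Mcm3 and Cdc45 stand apart on every array that measured both, whereas those of Cdc6, Mcm10 and Gmnn overlap.

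Nearly all genes around the polymerases fell. Of the 18 genes of that group tested, 16 fell and 2 did not pass, the median was -0.50 (70.6% of the untreated level), and all 18 means were below 0. The sliding clamp itself could not be placed in that count: the single Pcna probe was listed at 0 on both set 2 arrays. On the other 4 arrays Pcna read -0.51 and -0.28 in Cy5 (sets 1 and 3) and -0.50 and -0.41 in Cy3, all below 0. When a gene needed both orientations of only 2 sets, Pcna passed (-0.42, adjusted p = 0.0256). With zeros kept as values it did not (-0.28, adjusted p = 0.214).

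The clamp loader, replication factor C, opens the PCNA ring and places it on primed DNA; 3 of its 4 tested subunits fell. Rfc5 read -0.69, -0.58 and -0.41 in Cy5 and -0.80, -0.82 and -0.63 in Cy3 (mean -0.66 ± 0.12, adjusted p = 0.00106). Rfc1, the large subunit, read -0.73, -0.91 and -0.78 in Cy5 and -0.57, -0.36 and -0.37 in Cy3. Its set means were nearly equal (-0.62 ± 0.04, adjusted p = 9.5e-04), but each Cy5 reading was below each Cy3 reading, so that this SD leaves out a spread between orientations. Rfc4 fell by 0.49 ± 0.08 on the log2 scale (adjusted p = 0.00347), and Rfc3, at -0.29 ± 0.24 (adjusted p = 0.0741), ranged from -0.55 to 0.09 and passed without set 2 (-0.43, adjusted p = 0.0235).

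Replication protein A, which coats single-stranded DNA, fell in all 3 subunits. Rpa2 stood at -0.62 ± 0.11 (adjusted p = 0.00134), Rpa1 at -0.41 ± 0.13 (adjusted p = 0.0113, and 0.0525 without set 1) and Rpa3 at -0.35 ± 0.05 (adjusted p = 0.0137, and 0.0663 without set 3). Rpa3 shared with Gins2 a large gap between orientations, reading -0.47, -0.59 and -0.69 in Cy5 and -0.18, -0.05 and -0.14 in Cy3. Of the primase and polymerase alpha subunits, which start each strand, 3 of 4 fell. These were the catalytic subunits Pola1 (-0.55 ± 0.10, adjusted p = 0.00227) and Prim1 (-0.41 ± 0.07, adjusted p = 0.0079) and the accessory subunit Pola2 (-0.33 ± 0.16, adjusted p = 0.0294). The call of Pola2 was lost without set 1 or 2 (adjusted p = 0.114 and 0.117) and with zeros kept (adjusted p = 0.0809). The regulatory primase subunit Prim2 did not pass (-0.20 ± 0.12, adjusted p = 0.128).

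The polymerases that extend the strands fell in the 3 subunits tested. Pold2, the accessory subunit of polymerase delta, read -0.64, -0.70 and -0.16 in Cy5 and -0.86, -0.70 and -0.75 in Cy3 (mean -0.64 ± 0.16, adjusted p = 0.00167), with the set 3 array in Cy5 well above the other 5. Of polymerase epsilon, the catalytic subunit Pole stood at -0.61 ± 0.12 (adjusted p = 0.00157) and the accessory subunit Pole2 at -0.52 ± 0.25 (adjusted p = 0.00941, and 0.0762 with zeros kept). The catalytic subunit of polymerase delta, Pold1, was listed at 0 on 2 arrays and read between -0.07 and 0.05 on the other 4, so it was not tested.

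The enzymes that finish Okazaki fragments both fell, DNA ligase I (Lig1) by 0.55 ± 0.14 (adjusted p = 0.00303) and the flap endonuclease Fen1 by 0.42 ± 0.20 on the log2 scale (adjusted p = 0.0158). Chromatin assembly factor 1, which deposits histones behind the fork, fell in both measured subunits, Chaf1a by 0.51 ± 0.18 (adjusted p = 0.00587) and Chaf1b by 0.39 ± 0.07 (adjusted p = 0.0102). Without set 2 the calls of Fen1 and Chaf1b were lost (adjusted p = 0.0777 and 0.0526), and that of Fen1 also with zeros kept (adjusted p = 0.076).

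In nucleotide supply 4 of 5 genes fell, with a median of -0.44 (73.8% of the untreated level). Tk1, the cytosolic thymidine kinase of the salvage pathway, read -0.86, -0.74 and -0.57 in Cy5 and -0.87, -1.23 and -0.65 in Cy3. It had the lowest mean of the 42 members, -0.82 ± 0.19 (56.6% of the untreated level, adjusted p = 6.11e-04), and every array was at -0.57 or lower. Dut, the dUTPase that keeps uracil out of DNA, read -0.71, -0.78 and -0.42 in Cy5 and -0.74, -0.84 and -0.37 in Cy3 (mean -0.64 ± 0.22, adjusted p = 0.00272), with both set 3 arrays nearest to 0.

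Tyms, thymidylate synthase, fell by 0.44 ± 0.07 over its probes (adjusted p = 0.00586), but these differed. Probe 257 read -0.82, -0.82 and -0.27 in Cy5 and -0.78, -0.50 and -0.27 in Cy3 (mean -0.58 ± 0.28, adjusted p = 0.00678), and probe 14613 read 0.22, -0.08 and -0.41 in Cy5 and -0.33, -0.62 and -0.52 in Cy3 (mean -0.29 ± 0.21, adjusted p = 0.0686). Probe 257 was the lower of the 2 on 3 of 6 arrays. The SD of the average is smaller than that of either probe; their set means ran in opposite directions, 1 lowest in set 1 and the other in set 3.

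Ribonucleotide reductase makes deoxynucleotides from a large and a small subunit, and these read differently. The large subunit Rrm1 read -0.55, -0.48 and -0.41 in Cy5 and -0.35, -0.56 and -0.28 in Cy3 (mean -0.44 ± 0.09, adjusted p = 0.00632). The small subunit Rrm2, whose level is known to follow the cell cycle, read 0.05, -0.11 and 0.22 in Cy5 and -0.25, -0.29 and -0.16 in Cy3 (mean -0.09 ± 0.11, adjusted p = 0.483). Its readings were below 0 on all Cy3 arrays and on 1 of 3 Cy5 arrays. The difference between the subunits was not tested.

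**Figure D3:**
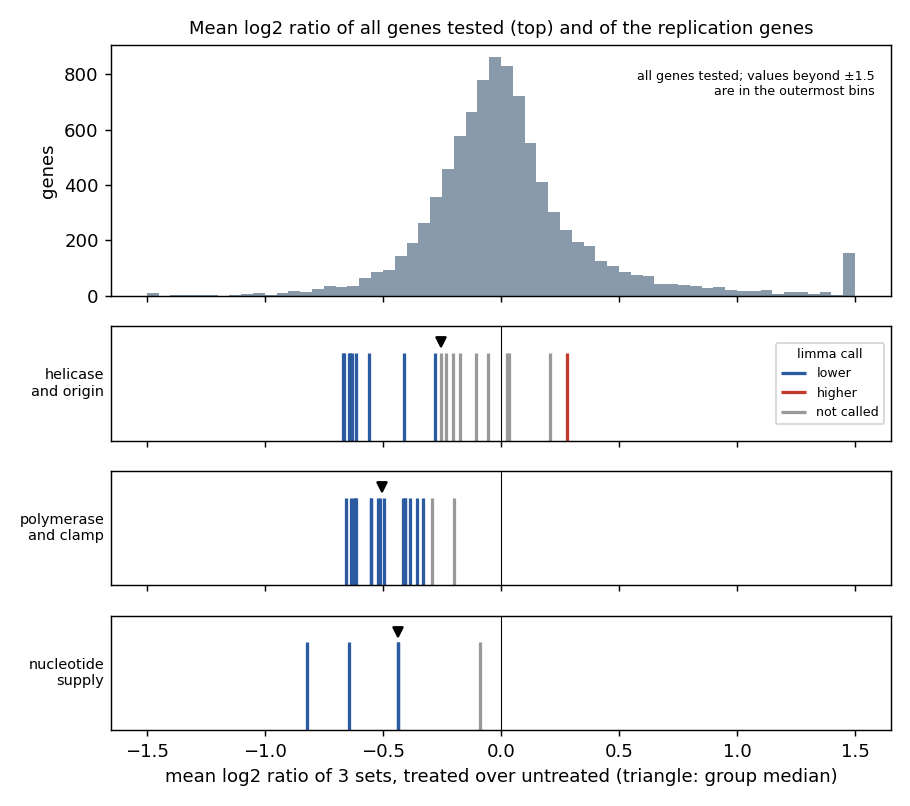
Top, number of genes (y axis) by mean log2 ratio of treated over untreated cells (x axis) for all 9160 genes tested; below, 1 line per replication gene in each of the 3 groups, coloured by limma call, with a triangle at the group median. The group medians are -0.25 (helicase and origin), -0.50 (polymerase and clamp) and -0.44 (nucleotide supply), to the left of the median of all genes at -0.01.

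By group, 9 of 19 helicase and origin genes fell, against 16 of 18 in polymerase and clamp and 4 of 5 in nucleotide supply, and the 1 gene that rose and the 3 others with a mean above 0 (Orc1, Orc4 and Cdc45) were all in the first group. These counts describe the lists and were not compared by a test.

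The dye orientation was examined because a ratio that depends on the dye would differ between orientations. Limma called a dye effect in 0 of the 42 members, against 0.142% of all genes. At an unadjusted p under 0.05 it was seen in 6 of the 42 members and in 2338 of all 9160 genes. Of the 42 members, 37 had a mean below 0 in both orientations. The largest gaps were those of Gins2 (-0.53 with treated RNA in Cy5 and -0.02 in Cy3) and Rpa3 (-0.59 and -0.12), followed by Rfc1 (-0.81 and -0.43), and none of these 3 passed the dye test (adjusted p = 0.113, 0.107 and 0.14).

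**Figure D4:**
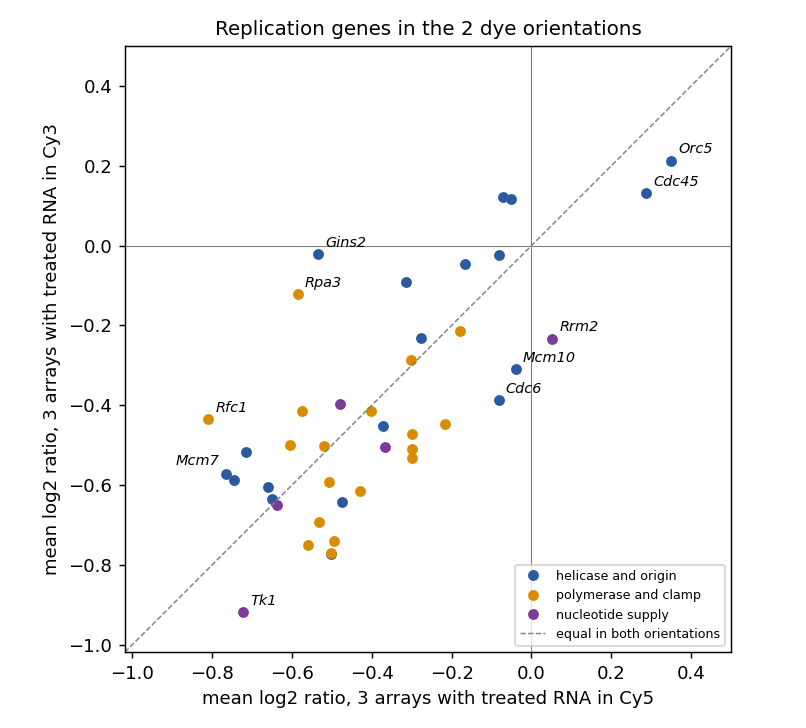
Mean log2 ratio of treated over untreated cells over the 3 arrays with treated RNA in Cy5 (x axis) and over the 3 with it in Cy3 (y axis), 1 point per replication gene, coloured by group; the dashed line marks equal values. Of the 42 points, 37 lie below 0 on both axes, with Gins2 and Rpa3 above it and Rrm2, Mcm10 and Cdc6 below it.

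Other genes of DNA replication outside the 47, listed by role, gave a wider range. Of 46 listed, 25 had a probe and 24 were tested; 12 fell (12.8% of all genes did), 3 rose (15.0% of all genes did) and 9 did not pass, with a median of -0.24. The number that rose is near the share over all genes. The lowest were topoisomerase Top2a, which untangles the copied strands (-0.77 ± 0.17, adjusted p = 7.11e-04), the folate enzyme Shmt1 (-0.72 ± 0.09, adjusted p = 5.65e-04), the ribonuclease H2 subunit Rnaseh2c (-0.62 ± 0.06, adjusted p = 0.001) and the exonuclease Exo1 (-0.62 ± 0.12, adjusted p = 0.00151). Partners of members were among those that fell: Gins3, the remaining GINS subunit, by 0.59 ± 0.14 (adjusted p = 0.00225), and Dbf4, the activator of Cdc7, by 0.42 ± 0.14 (adjusted p = 0.00952, and 0.177 with zeros kept). Not every partner did: Pold3, another subunit of polymerase delta, stood at -0.04 ± 0.20 (adjusted p = 0.794). Gins3, Dbf4 and Pold3 were named after their values were seen.

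The highest of that list was Pole4, a small histone-fold subunit of polymerase epsilon. It read 1.39, 1.37 and 1.41 in Cy5 and 1.29, 1.46 and 1.47 in Cy3, all within a narrow range, and rose 2.63-fold (1.40 ± 0.05, adjusted p = 1.25e-05). Pole and Pole2 of the same enzyme fell, and Pole3, its histone-fold partner, stood at -0.12 ± 0.08 (adjusted p = 0.317). Samhd1, which breaks down deoxynucleotide triphosphates and is also known as an interferon-induced antiviral factor, read 1.19, 0.95 and 0.92 in Cy5 and 1.20, 1.18 and 1.01 in Cy3 and rose 2.11-fold (1.08 ± 0.12, adjusted p = 8.05e-05). The third that rose was Tk2, the mitochondrial thymidine kinase, at 0.50 ± 0.16 (adjusted p = 0.00556), opposite in direction to the cytosolic Tk1. Pole3 and Tk2 were also named after their values were seen, and differences between these genes were not tested.

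Of 22 markers of other cell types, 17 were tested, 2 rose (the fibroblast gene Dcn, 2.68 ± 0.95, and the B cell gene Cd79a, 0.63 ± 0.11) and 0 fell, with means from -0.21 to 2.68; over all genes 15.0% rose. The other markers tested of both types did not pass: the fibroblast collagens Col1a1 (0.01), Col1a2 (0.07) and Col3a1 (-0.21), and the B cell genes Cd79b (-0.07) and Ms4a1 (0.02). Their part in the values above was not tested.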

How the data were processed

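For each array the deposited table holds a log ratio of Cy5 over Cy3 for every probe, treated here as a deposited log2 value although its base is not stated. Background correction, dye normalization and spot filters by the authors were not given in the sources used here. Labels name the line RAW 264.7, apart from 1 mention of RAW 264.4 in the description of each array, read here as the same line. Arrays of 1 orientation correlated at 0.67 to 0.77 and of opposite orientation at -0.66 to -0.41. Exact zeros (7.97% to 17.8% of an array) were set to missing, signs were turned where the treated RNA was in Cy3 (3 arrays), probes with a ratio on all 6 arrays were averaged per symbol, and both orientations of a set were averaged. Set means (n = 3) were compared with 0 in limma 3.58.1 in R 4.3.3 (lmFit, eBayes, two-sided, Benjamini-Hochberg over genes, threshold 0.05); the dye effect was tested on ratios that had not been turned. The procedure was also run on simulated data with independent errors on each array, which leaves out any correlation between arrays of a set. The small number of arrays limits the precision. Probe names came from the platform annotation, which can be old, and probe sequences were not used here.

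The members and lists were chosen with earlier results of these data known. Readings on every array are given for the 10 lowest and 4 highest members tested and for a fixed list of central genes. They are also given for probes that differ in call or by over 0.5. Those of Gins1, Gins2, Orc6 and Rpa3 are given outside that rule, with their values known. Other lists name only called genes, the 4 lowest and 2 highest for replication, unless the text says otherwise. Alternatives are described at the end.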

Additional observations from a re-analysis of the deposited data

How the results depend on the processing

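Of the 29 members that fell, 24 to 29 were called lower under each alternative fitted over genes, and none of the 42 reversed in a call. With exact zeros kept as values the fit covered 45 members and 10698 genes, in place of 42 and 9160. Limma called 24 members lower there, all of them shared, and over all genes 634 lower in place of 1171. The members that lost their call (Mcm4, Gins2, Pola2, Pole2 and Fen1) had no zero on any array and kept their means. Only their p-values changed, which draw on all genes of a fit. With probes in place of genes it called 31 member probes lower and 3 higher. With both orientations in at least 2 sets the additional gene was Pcna. The median of the members stayed between -0.49 and -0.41.

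The count of members that rose, 1 (Orc5), became 0 with zeros kept and 0 with arrays scaled to a common spread (limma, 2 at an unadjusted p under 0.05 in each), and 2 with no replicate block. Over all genes, 3602 of 10698 with zeros kept and 3494 of 9160 with arrays scaled passed that unadjusted level, in either direction. Without set 1, 2 or 3 the count of members that rose was 0 each time (1 at an unadjusted p under 0.05). At that level 3031, 3111 and 2974 of all genes passed in either direction. In the same fits 25 to 28 members fell, and the genes lower over all numbered 886, 747 and 764.

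With the set as a replicate block over the 6 arrays 29 members fell, and with no replicate block 32. Deviations of same-numbered arrays correlated at 0.54, 0.08 and 0.18, and 5 of 6 arrays correlated best with their own number. Centring and robust variance estimates left the members' calls as they were.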
